A study of Mus musculus with 10 samples.

Results

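The genes described here are the variable segments of the T cell receptor alpha locus, all 116 of the 20617 listed genes whose symbols start with Trav. They comprise 110 segments annotated as TR_V_gene and 6 annotated as TR_V_pseudogene. The values are normalized RNA sequencing counts from spleen CD3+ T cells of Nf1OPG mice, which carry 1 mutant and 1 floxed Nf1 allele with Cre driven by the GFAP promoter in neuroglial progenitors, on a C57BL/6 background. Control mice (PBS, replicates 1 to 5) received saline and treated mice (OVA, replicates 6 to 10) received ovalbumin, the egg protein used to induce experimental asthma, at 16 µg/mL with 2 mg/mL aluminum hydroxide in 0.5 mL injections during 2 weeks, so that the genotype was shared by both groups. In the authors' ovalbumin model the intraperitoneal injections were followed by intranasal doses of ovalbumin under anesthesia. The age at spleen harvest was not stated for this assay, nor whether animals were pooled, and each replicate was taken as 1 mouse, so that the p-values measure the spread between these libraries.

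T cells build the alpha chain of their receptor by joining 1 variable segment to 1 joining segment, which is then spliced to the constant gene Trac. In the mouse the variable region of the locus was partly triplicated, and the copies carry the letters d and n in their names. Most receptors use many different segments, whereas invariant natural killer T cells use Trav11 and mucosal-associated invariant T cells use Trav1. The Trav segments lie on the plus strand of chromosome 14, from 52427928 to 53977678 in GRCm38, upstream of the joining segments. In bulk RNA the use of a segment by fewer cells and less RNA per cell cannot be told apart.

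In the deposited table the values do not stand on the rows of their names. The realignment of values and names, made without treatment groups, gave a distance of 24 rows at all 116 Trav names, with a probability between 0.997 and 1.00 (median 0.999). The distance of 25 rows, which was set first, had a probability of at most 0.00247 there and became the alternative. Trac carried a mean of 22284 normalized counts at 24 rows and 529 at 25 rows. Both rows with equal values in 10 of 10 libraries were named Trav6-6 and Trav6d-6 at 24 rows, whose variable exons are identical over 298 bases, but Trav6-7-dv9 and Trav6d-7 at 25 rows, which differ at 6 of 292 bases. At 24 rows 5 of the 6 pseudogenes also had lower means than at 25 rows, the exception being Trav9n-1 (17.0 and 2.78 normalized counts).

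Between 6835696 and 29915782 reads were recovered per library, and a single read corresponded to 2.77 normalized counts in PBS replicate 3, the shallowest library, and to as few as 0.626 in OVA replicate 7, the deepest. All 13 T cell markers were found, with summed levels of 111189 to 215855 normalized counts in PBS and 136453 to 187193 in OVA mice. The summed B cell markers (12 of 12 found) ranged from 45145 to 291847 in PBS and from 34565 to 101703 in OVA mice, nearly all of it Igkc, the kappa light chain constant gene, while Cr2 was at 0 in 7 of the 10 libraries. The ranges in PBS and OVA mice were 1275 to 10545 and 1098 to 34849 for myeloid, 472 to 933 and 561 to 759 for NK cell, and 2183 to 12252 and 333 to 7252 for erythroid markers. For the stromal markers the ranges were 86.6 to 263 and 157 to 573 without Thy1, which T cells also carry. With Thy1, which made up most of the sum, they were 1673 to 2423 and 2172 to 2616. By limma, 5 of the 10 found genes other than Thy1 had an unadjusted p under 0.05, against 9.77% of all genes. The 5 were Col1a1, Pdgfrb, Igfbp7, Serping1 and Sparc, all higher in OVA mice. Of the stromal genes 0 were called, against 0.00494% of all genes. PBS replicate 3 had the lowest T cell sum and the highest B cell sum. PBS replicates 1 and 3 had the least even Trav shares when each copy was counted as its own segment. The part of depth and of other cells in the Trav values was not tested.

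The sequences below are variable exons of the segments on which the results turn, from GENCODE release M21 of GRCm38, where 114 of the 116 segments are annotated under the same name. The first 4 show the germline 3′ end of segments that are tied to innate-like T cells or that varied most between mice, with the last in-frame cysteine codon and the bases after it in capitals, which is the stretch that enters the third complementarity-determining region.
Trav11 (chr14:53519569-53519859): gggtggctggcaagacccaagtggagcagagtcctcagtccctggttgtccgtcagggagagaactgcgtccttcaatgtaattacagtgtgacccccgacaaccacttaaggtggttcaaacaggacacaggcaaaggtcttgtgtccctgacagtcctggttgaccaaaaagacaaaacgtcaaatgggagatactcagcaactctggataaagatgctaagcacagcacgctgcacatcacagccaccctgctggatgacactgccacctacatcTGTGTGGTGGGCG
Trav1 (chr14:52428594-52428876): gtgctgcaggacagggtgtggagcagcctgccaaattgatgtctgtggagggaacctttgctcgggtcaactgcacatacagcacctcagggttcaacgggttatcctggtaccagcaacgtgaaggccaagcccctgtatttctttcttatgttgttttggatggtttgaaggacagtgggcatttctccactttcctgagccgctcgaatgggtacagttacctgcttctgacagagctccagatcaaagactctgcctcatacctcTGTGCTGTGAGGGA
Trav12-2 (chr14:53616623-53616914): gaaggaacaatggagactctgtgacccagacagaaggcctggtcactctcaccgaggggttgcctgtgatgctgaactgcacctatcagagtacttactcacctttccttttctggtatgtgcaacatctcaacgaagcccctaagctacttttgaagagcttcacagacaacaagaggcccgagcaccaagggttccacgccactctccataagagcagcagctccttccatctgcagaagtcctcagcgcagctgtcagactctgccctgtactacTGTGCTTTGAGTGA
Trav5n-4 (chr14:53313132-53313422): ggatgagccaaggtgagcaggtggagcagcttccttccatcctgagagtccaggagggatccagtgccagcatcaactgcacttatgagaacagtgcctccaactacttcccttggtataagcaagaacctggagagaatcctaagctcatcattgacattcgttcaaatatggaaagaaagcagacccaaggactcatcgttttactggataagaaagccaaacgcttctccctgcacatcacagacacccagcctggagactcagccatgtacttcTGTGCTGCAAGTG

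Copies can be nearly the same. Trav7-4 and Trav7d-4, the most abundant segment and its d copy, differ at the 1 base in capitals, and Trav8-1 and Trav8d-1 differ at 3 bases in capitals.
Trav7-4 (chr14:53461447-53461738): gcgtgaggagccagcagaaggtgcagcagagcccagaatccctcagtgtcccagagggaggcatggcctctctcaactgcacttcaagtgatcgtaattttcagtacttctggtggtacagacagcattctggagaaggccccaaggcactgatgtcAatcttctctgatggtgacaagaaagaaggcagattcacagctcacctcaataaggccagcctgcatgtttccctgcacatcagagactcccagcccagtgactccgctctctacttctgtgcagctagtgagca
Trav7d-4 (chr14:52770101-52770392): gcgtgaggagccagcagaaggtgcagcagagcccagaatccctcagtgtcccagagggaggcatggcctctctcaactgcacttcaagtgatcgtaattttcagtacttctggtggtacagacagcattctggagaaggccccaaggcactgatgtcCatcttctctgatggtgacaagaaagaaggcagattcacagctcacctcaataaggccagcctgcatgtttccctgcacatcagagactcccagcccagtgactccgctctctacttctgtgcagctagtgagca
Trav8-1 (chr14:53469948-53470232): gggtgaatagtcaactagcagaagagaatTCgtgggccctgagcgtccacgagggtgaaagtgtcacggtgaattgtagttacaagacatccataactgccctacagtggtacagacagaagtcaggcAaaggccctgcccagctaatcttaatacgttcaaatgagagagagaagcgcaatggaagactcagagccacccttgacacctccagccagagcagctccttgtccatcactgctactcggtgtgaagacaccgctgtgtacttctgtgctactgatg
Trav8d-1 (chr14:52778711-52778995): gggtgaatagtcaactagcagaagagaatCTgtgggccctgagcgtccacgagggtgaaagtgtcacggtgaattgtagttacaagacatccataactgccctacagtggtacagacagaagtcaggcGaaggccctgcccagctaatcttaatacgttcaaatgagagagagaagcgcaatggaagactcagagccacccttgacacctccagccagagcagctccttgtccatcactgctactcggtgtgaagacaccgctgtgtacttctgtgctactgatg

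Of the 454 pairs of segments within a family, 19 had variable exons with no mismatch, which together held 38 segments, and 13 pairs had 1 to 3 mismatches. In 13 of the 19 identical pairs the means of the copies nevertheless differed over 2-fold. Trav6d-7 had a mean of 1.62 and Trav6n-7 of 94.3 normalized counts, and Trav11d had 5.09 against 216 for Trav11. Conversely, Trav13d-2 and Trav13n-2 had equal values in 9 of 10 libraries. The number of identical pairs with equal values above 0 was between 2 (PBS replicate 1) and 9 (OVA replicate 10) of 19 per library. How the authors' counting divided reads between copies was not given in the sources used here, so that the values of single copies are uncertain, and sums over the d, n and unlettered copies are given for several of the segments named.

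Every one of the 116 segments had a mean of at least 1 normalized count, 107 had at least 5, and 85 had a read in all 10 libraries. The segments summed to 10574, 5909, 5453, 8046 and 8886 normalized counts in PBS replicates 1 to 5 and to 6785, 8532, 8561, 6956 and 6840 in OVA replicates 6 to 10. These totals rest on 1969 reads in PBS replicate 3 and on 5791 to 13632 reads in the other libraries. As a share of all normalized counts, the Trav total was 0.0396% ± 0.00891 (SD, n = 5) in PBS and 0.0418% ± 0.00377 (SD, n = 5) in OVA mice. PBS replicates 2 and 3 were the lowest, and the OVA range (0.0378% to 0.0460%) lay within the PBS range (0.0288% to 0.0488%). Relative to Trac, the constant gene of the alpha chain, the Trav total was 35.6% ± 4.46 in PBS and 33.7% ± 3.18 in OVA mice (SD, n = 5 each), again with overlapping groups. This ratio is not one of molecules, since the segments and Trac differ in exon length. Some segments, such as Trav14d-3-dv8, also carry dv, for delta variable, in their names. The constant gene spliced to each segment was not examined.

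Many segments contributed to the Trav total. The mean share ranged from 0.0210% to 4.06% (median 0.639%), against 0.862% if all segments were equal, and the 25 most abundant segments made up 50% of the total. The pseudogenes had means between 3.62 and 17.0 normalized counts, whereas the median was 52.4 in the 110 segments annotated as genes. The lowest mean shares were those of Trav18, Trav6d-7 and Trav23, with means of 1.61, 1.62 and 2.13 normalized counts.

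The most abundant segment was Trav7-4, with shares of 5.13%, 3.58%, 4.11%, 3.84% and 4.72% in PBS replicates 1 to 5 and of 3.99%, 4.20%, 3.71%, 3.63% and 3.69% in OVA replicates 6 to 10. It was followed by Trav3-3, whose shares were 4.99%, 3.26%, 3.71%, 4.68% and 3.25% in PBS and 4.29%, 2.82%, 4.41%, 3.83% and 2.28% in OVA mice. The order of both changed between mice, since Trav3-3 was above Trav7-4 in PBS replicate 4 and in OVA replicates 6, 8 and 9. With the 3 copies of each summed, Trav7-4 (7.59% ± 0.857 in PBS and 6.34% ± 0.585 in OVA mice) was above Trav3-3 (5.31% ± 0.593 and 5.83% ± 0.293; SD, n = 5 each) in all mice but OVA replicate 10, where they had 5.56% and 6.26%. The next segments were Trav14n-1 (mean share 3.09%), Trav11 (2.88%), Trav14d-3-dv8 (2.74%), Trav7d-4 (2.59%), Trav7-3 (2.56%), Trav12-3 (2.33%), Trav9n-4 (2.16%), Trav7d-2 (2.02%), Trav13-1 (1.81%) and Trav8d-1 (1.69%). Per kilobase of annotated exon, Trav7-4 (700 normalized counts per kb) and Trav3-3 (697) were also the highest, followed by Trav11 (629) and Trav14n-1 (570). Trav9n-4, which has 595 exonic bases, moved from rank 9 by share to rank 18 per kilobase.

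**Figure D1:**
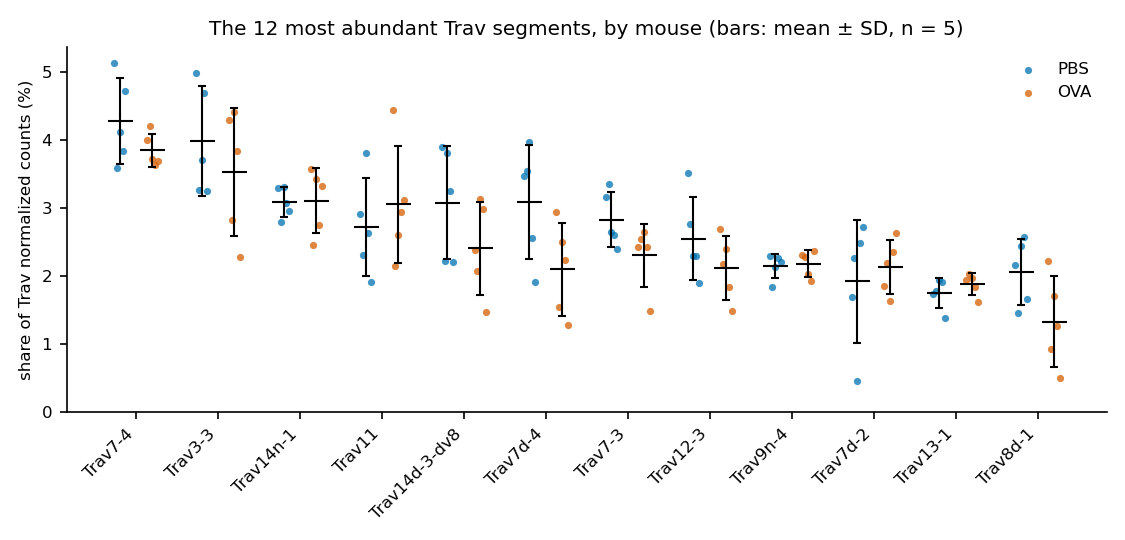
Shares (%) of the Trav normalized counts for the 12 most abundant segments, with 1 point per mouse in PBS (blue) and OVA (orange) and bars for the mean ± SD (n = 5). The groups overlap for every segment shown, and Trav7d-2 has 1 PBS mouse (replicate 3) at 0.457%.

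By family, the 14 Trav7 segments held 16.3% ± 0.773 of the total in PBS and 14.5% ± 0.760 in OVA mice, and the 9 Trav14 segments held 13.6% ± 0.456 and 13.2% ± 0.762 (SD, n = 5 each). Trav12 (9 segments) and Trav9 (11 segments) followed with 10.3% each over all 10 mice. Trav12 had a wide spread in both groups (9.45% ± 2.41 in PBS and 11.1% ± 2.06 in OVA mice). All 22 families overlapped between the groups.

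Along the locus, the block of copies with neither letter (35 segments, 53390635 to 53763694) held the greatest part, 37.8% ± 2.50 in PBS and 39.8% ± 1.90 in OVA mice. The 30 n copies held 25.9% ± 1.53 and 27.0% ± 1.96, and the 36 d copies held 24.9% ± 1.63 and 23.2% ± 1.61. The mean level per segment was 85.1 normalized counts in the block with neither letter, 67.2 for n copies and 51.1 for d copies. The 7 single segments at the 5′ end, from Trav1 on, held 5.58% ± 1.31 and 4.89% ± 1.14, and the 8 at the 3′ end, from Trav3-4 to Trav23, held 5.84% ± 0.859 and 5.10% ± 0.820. Each of the 5 blocks overlapped between the groups.

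**Figure D2:**
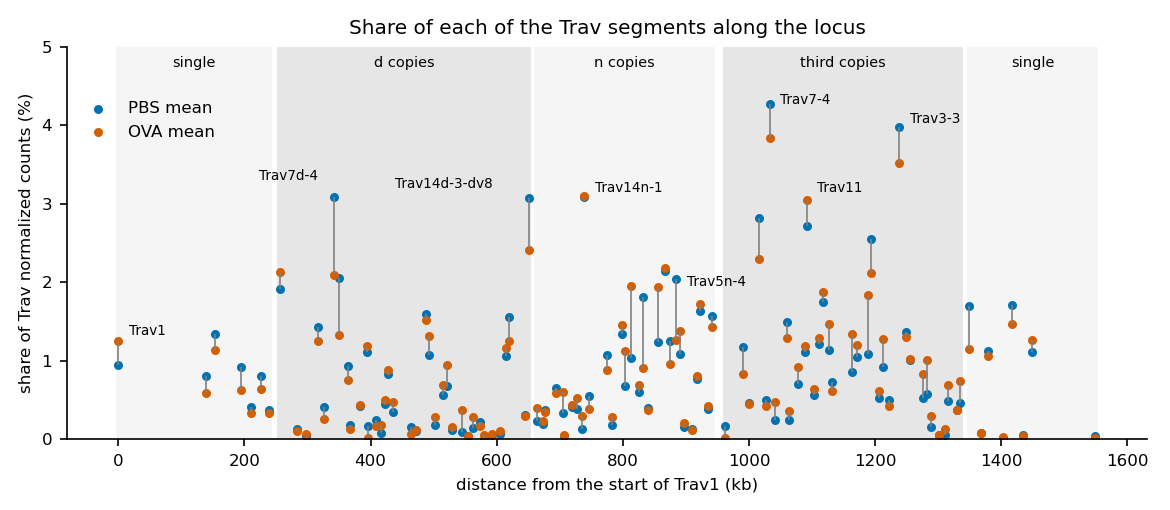
Mean share (%) of each of the 116 segments in PBS (blue) and OVA (orange) mice against the distance (kb) of its start from the start of Trav1, with a grey line between both means and shaded blocks for single segments and the 3 sets of copies. Abundant segments stand beside segments near 0 in every block, and the highest, Trav7-4 and Trav3-3, are in the block with neither letter.

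Trav11, the segment of invariant natural killer T cell receptors, had shares of 2.91%, 2.30%, 3.81%, 2.63% and 1.91% in PBS and of 4.44%, 2.15%, 2.59%, 2.94% and 3.12% in OVA mice. The highest mouse was OVA replicate 6 and the lowest PBS replicate 5. Its level was 207 ± 64.3 normalized counts in PBS and 225 ± 45.1 in OVA mice (SD, n = 5 each), with a difference of 0.15 on the log2 scale (SE 0.22; adjusted p = 0.855 by limma). Trav11d, identical to it over the 290 aligned bases of the variable exon, was read 17 times in PBS replicate 3 (0.863% of its Trav total, exact 95% binomial interval 0.504% to 1.38%). In the other 9 libraries Trav11d had at most 2 reads. Together with Trav11n, the Trav11 copies made up 4.72% of the Trav total in PBS replicate 3, the highest of all mice, and 1.96% in PBS replicate 5.

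Trav1, the segment of mucosal-associated invariant T cell receptors, had shares of 1.07%, 0.685%, 1.02%, 1.06% and 0.863% in PBS and of 1.28%, 1.23%, 1.45%, 1.24% and 1.02% in OVA mice. All OVA mice but replicate 10 lay above every PBS mouse. Its level was 74.2 ± 28.1 and 94.6 ± 20.7 normalized counts, differing by 0.40 on the log2 scale (SE 0.29; adjusted p = 0.671 by limma), and by 0.41 with the libraries at the same Trav total (adjusted p = 0.927). Trav1 was among the segments that varied least between mice of a group, with an SD 1.21 times that of counting alone.

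The evenness of the shares was described by Pielou's index, which is 1 when all segments are equal, and by the effective number of segments, the inverse of the Simpson index. Pielou evenness was 0.879, 0.914, 0.864, 0.904 and 0.919 in PBS replicates 1 to 5 and 0.898, 0.921, 0.902, 0.917 and 0.913 in OVA replicates 6 to 10. PBS replicates 1 and 3 were below every other mouse, and the other 3 PBS mice lay within the OVA range. The effective number of segments was 48.9, 62.0, 47.4, 57.7 and 63.0 in PBS and 55.2, 65.5, 58.8, 63.2 and 60.6 in OVA mice, with means of 55.8 ± 7.30 and 60.7 ± 3.98 (SD, n = 5 each). The 10 most abundant segments of each library held 31.0% ± 3.83 in PBS and 28.4% ± 2.16 in OVA mice, and again PBS replicates 1 and 3 were the highest (34.8% and 35.2%).

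With every library drawn down to 1969 Trav reads, the effective number was 54.9 ± 6.78 in PBS and 59.4 ± 3.86 in OVA mice. PBS replicate 1 was then at 48.0 and no OVA mouse fell below 54.0, while PBS replicate 3, whose depth set the number drawn, stayed at 47.4 by construction. When d and n copies were summed, which leaves 51 units, OVA replicate 10 was the lowest mouse. PBS replicates 1 and 3 were still below the remaining mice. The effective number was then 29.0, 30.3, 29.5, 31.9 and 30.3 in PBS replicates 1 to 5 and 31.0, 30.6, 31.3, 31.9 and 29.0 in OVA replicates 6 to 10. The means of 30.2 ± 1.10 and 30.8 ± 1.09 (SD, n = 5 each) differed by less than the spread within either group.

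**Figure D3:**
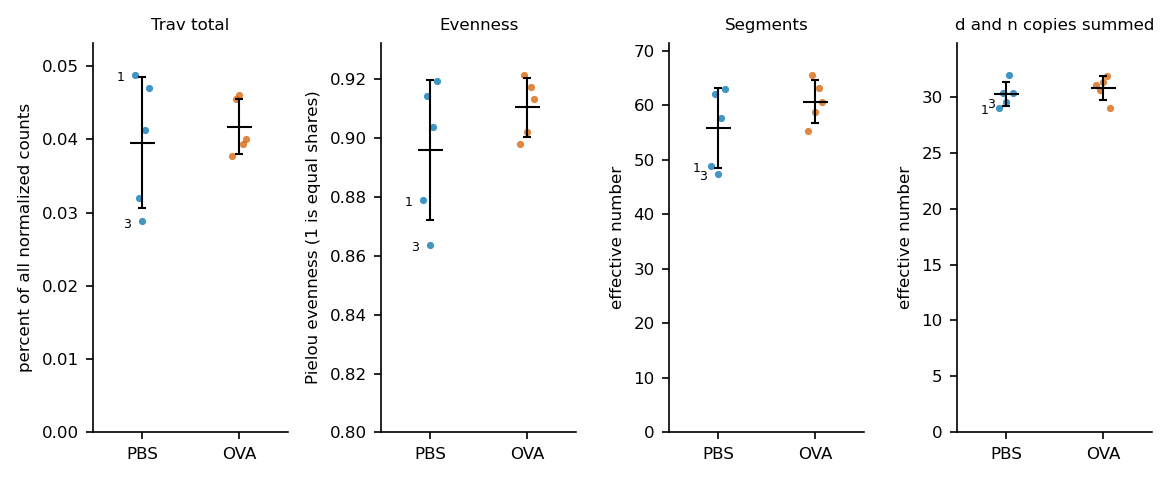
Trav total (percent of all normalized counts), Pielou evenness (axis from 0.8), effective number of segments and effective number with d and n copies summed, with 1 point per PBS (blue) or OVA (orange) mouse, bars for the mean ± SD (n = 5), and PBS replicates 1 and 3 marked. Both stand below the other mice for evenness and effective number of segments. Once copies are summed, OVA replicate 10 is lowest, and both stay below the remaining mice.

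The shares of many segments varied more between mice of a group than counting of reads alone gives. The ratio of both spreads also holds any division of reads between copies, and the same relative spread gives a higher ratio in an abundant segment. Among the 97 segments with a mean of at least 10 normalized counts, the SD of the share within groups was between 0.989 and 6.66 times the SD of counting alone (median 2.39), and it was over 3 times as large for 33 segments. PBS replicate 3 was lowest for 30 of these segments and highest for 17, and OVA replicate 10 was lowest for 20 and highest for 21. The segments described next for this spread were chosen after their values were seen.

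Trav12-2 had shares of 0.372%, 1.82%, 0.0508%, 1.07% and 2.13% in PBS and of 0.663%, 2.77%, 0.930%, 1.43% and 3.38% in OVA mice. In PBS replicate 3 this was 1 read, where the median share of the other mice gives 28.2 reads (exact 95% binomial interval of the share 0.00129% to 0.283%), and in OVA replicate 10 the interval was 3.01% to 3.78%. Trav12n-3 had 0.363%, 1.46%, 0.0508%, 1.26% and 2.07% in PBS and 1.18%, 2.02%, 1.35%, 1.66% and 3.53% in OVA mice. Trav16 had 0.151%, 0.772%, 0%, 0.468% and 1.03% in PBS and 0.354%, 0.814%, 0.520%, 0.535% and 1.23% in OVA mice. All 3 segments were lowest in PBS replicate 3, next lowest in PBS replicate 1 and highest in OVA replicate 10. With copies summed, Trav12-2 and Trav12-3 were still lowest in PBS replicate 3 (2.69% and 2.34%) and highest in OVA replicate 10 (6.33% and 5.34%), but Trav16 was not. The Trav16 copies together were lowest in PBS replicate 1 (2.76%) and highest in OVA replicate 9 (4.27%), with 3.76% in PBS replicate 3 and 3.59% in OVA replicate 10. In PBS replicate 3 no read was found for 5 segments of which at least 5 reads were expected from the other mice: Trav16, Trav8-1, Trav7n-4, Trav6-5 and Trav7d-5. Of their copies, Trav7n-5 (identical to Trav7d-5), Trav6n-5 (1 base from Trav6-5) and Trav8d-1 (3 bases from Trav8-1) had 0.508%, 0.254% and 2.44% in that library. With no read of 1969, a share of up to 0.187% is allowed (exact 95% binomial interval), which covers counting error only and not the division of reads between copies.

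Other segments had the opposite order. Trav5n-4 had shares of 1.89%, 1.43%, 3.91%, 2.02% and 0.944% in PBS and of 1.90%, 0.785%, 1.74%, 1.54% and 0.380% in OVA mice. Trav3-4 had 2.10%, 1.24%, 2.79%, 1.59% and 0.751% in PBS and 1.81%, 0.976%, 1.46%, 1.09% and 0.426% in OVA mice. Both were highest in PBS replicate 3 and lowest in OVA replicate 10, and neither separated the groups. The Trav5-4 copies together kept this order, with 4.37% in PBS replicate 3 and 1.93% in OVA replicate 10, while Trav3-4 has no copy. In 13 of the 97 segments PBS replicate 3 was lowest and OVA replicate 10 highest, and in 8 it was the reverse, and with copies summed this held for 6 and 6 of the 51 units. PBS replicate 3 was also the library with the fewest reads, the highest B cell sum and the lowest T cell sum, whose part in these shares was not tested.

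**Figure D4:**
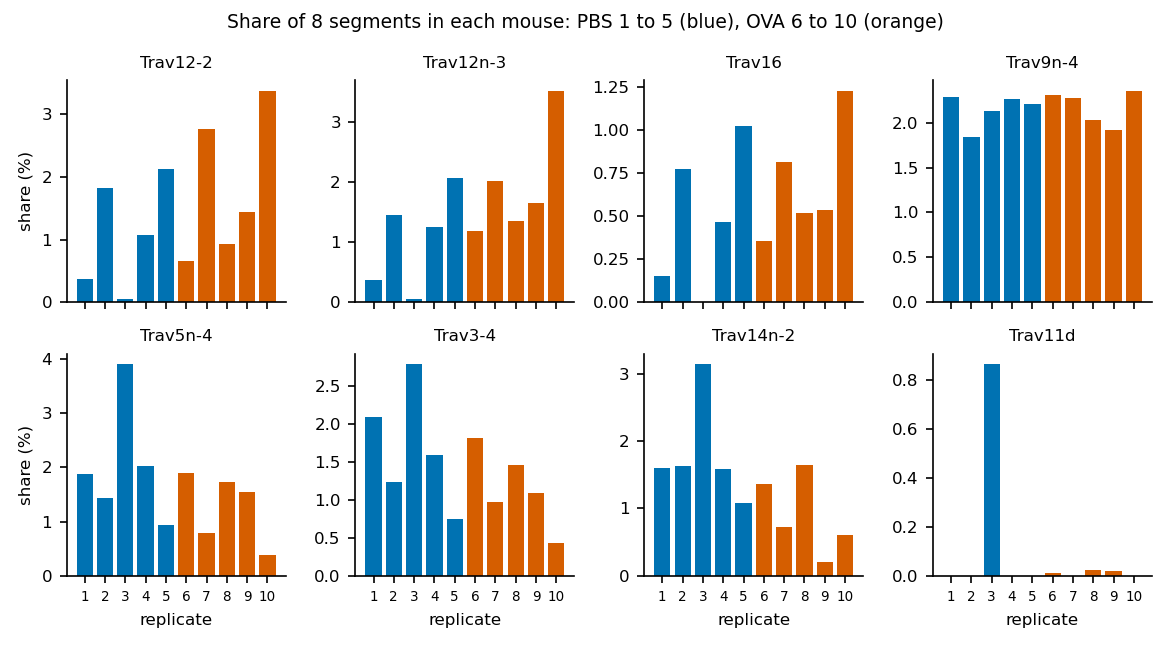
Share (%) of the Trav normalized counts of 8 segments in each mouse (bars from 0), PBS replicates 1 to 5 in blue and OVA replicates 6 to 10 in orange. Trav12-2, Trav12n-3 and Trav16 are lowest in PBS replicate 3 and highest in OVA replicate 10, Trav5n-4 and Trav3-4 the reverse, Trav9n-4 is nearly level, and Trav11d is seen almost solely in PBS replicate 3.

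Some segments were steady. Trav9n-4 had shares between 1.84% and 2.36% in the 10 mice and an SD 1.03 times that of counting alone, and Trav13-1 between 1.38% and 2.02% (1.17 times). Summing copies removed the spread of some segments and not of others. Trav14n-2 ranged from 0.207% to 3.15%, but Trav14-2, Trav14d-2 and Trav14n-2 together had 3.38%, 3.32%, 3.56%, 3.37% and 3.37% in PBS and 2.74%, 3.02%, 3.02%, 2.92% and 3.96% in OVA mice. By contrast, Trav12-2, Trav12d-2 and Trav12n-2 together still ranged from 2.69% in PBS replicate 3 to 6.33% in OVA replicate 10. The median ratio of the SD to that of counting alone was 2.34 over the 51 units.

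The comparison of OVA with PBS mice asked whether experimental asthma goes along with a change in the segments used by spleen T cells. No segment passed the test: 0 of 116 had an adjusted p under 0.05 (limma over 20249 genes), where 0.00494% of all genes were called, and edgeR and DESeq2 on the recovered reads also called 0, where 0.00988% and 0.883% of all genes were called. At an unadjusted p under 0.05 there were 2 of 116 segments (1.72%) by limma, 3 by edgeR and 3 by DESeq2, against 9.77%, 9.06% and 9.13% of all genes. No segment had groups that did not overlap, where this held for 1.78% of all genes. The median log2 fold change was 0.09 over the Trav segments and 0.04 over all genes, and 69 of 116 segments (59.5%) were above 0, against 54.5% of all genes. A log2 fold change over 1 in either direction was seen in 14 segments (12.1%), against 11.5% of all genes. For the shares, tested with each library at the same Trav total, 0 of 116 segments were called and 2 had an unadjusted p under 0.05, against 0.00494% and 6.93% of all genes.

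The 4 largest falls among segments with a mean of at least 10 were those of Trav14n-2, Trav15n-1, Trav8d-1 and Trav5n-4. Trav14n-2 had shares of 1.59%, 1.63%, 3.15%, 1.59% and 1.09% in PBS and of 1.37%, 0.719%, 1.65%, 0.207% and 0.598% in OVA mice. PBS replicate 3 was far above the other mice, while OVA replicate 8 lay above 4 of the PBS mice. Its log2 fold change was -1.21 (SE 0.47), with an adjusted p of 0.413 by limma, the lowest of all segments, and of 0.587 for the share. The others had log2 fold changes of -0.86 (SE 0.69; Trav15n-1), -0.78 (SE 0.38; Trav8d-1) and -0.74 (SE 0.44; Trav5n-4), with adjusted p values of 0.708, 0.527 and 0.596 by limma. Trav15n-1 was at -0.14 without OVA replicate 7, and its copies together held 1.62% ± 0.324 in PBS and 1.48% ± 0.205 in OVA mice (SD, n = 5 each). Trav7d-4 was at 234 ± 76.9 normalized counts in PBS and 157 ± 51.3 in OVA mice, with a log2 difference of -0.58 (SE 0.27; adjusted p = 0.500 by limma).

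The 4 largest rises were those of Trav7-6 (log2 fold change 1.65, SE 0.89), Trav3d-3 (1.64, SE 1.22), Trav13n-1 (1.58, SE 0.75) and Trav8-1 (1.53, SE 0.86), with adjusted p values between 0.517 and 0.681 by limma. All 4 are scarce segments with means between 16.0 and 27.6 normalized counts. Each had no read in PBS replicate 3, whose value at 3 reads is 8.31 normalized counts. Without that mouse the log2 fold changes of Trav7-6, Trav13n-1 and Trav8-1 were 1.01, 0.88 and 0.67, and edgeR on the recovered reads gave 0.71, 0.94 and 0.79. Trav7-6 was at 2.40 without PBS replicate 5. Trav3d-3 was at 0.89 without OVA replicate 7, at 1.01 without OVA replicate 10, at 2.27 and 2.25 without PBS replicates 2 and 5, and at 1.94 with edgeR. The variable exon of Trav3d-3 is identical over 291 bases to that of Trav3n-3, which had a mean of 120 normalized counts. With copies summed, Trav3-3 held 5.31% ± 0.593 in PBS and 5.83% ± 0.293 in OVA mice. In the same way Trav7-6 held 0.361% ± 0.368 in PBS and 0.564% ± 0.371 in OVA mice, and Trav13-1 held 2.32% ± 0.193 and 2.66% ± 0.253 (SD, n = 5 each). Trav7-6 had shares of 0.0177%, 0.189%, 0%, 0.0401% and 0.528% in PBS and of 0.133%, 0.513%, 0.0664%, 0.328% and 0.426% in OVA mice, with the highest value in a PBS mouse. Trav8-1 had 0.0532%, 0.306%, 0%, 0.308% and 0.558% in PBS and 0.166%, 0.697%, 0.332%, 0.414% and 0.736% in OVA mice, whereas its d copy Trav8d-1, 3 bases away, had 2.16%, 1.46%, 2.44%, 2.57% and 1.66% in PBS and 2.22%, 0.924%, 1.71%, 1.26% and 0.495% in OVA mice. The sum of both ranged from 1.76% to 2.88% in PBS and from 1.23% to 2.39% in OVA mice.

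**Figure D5:**
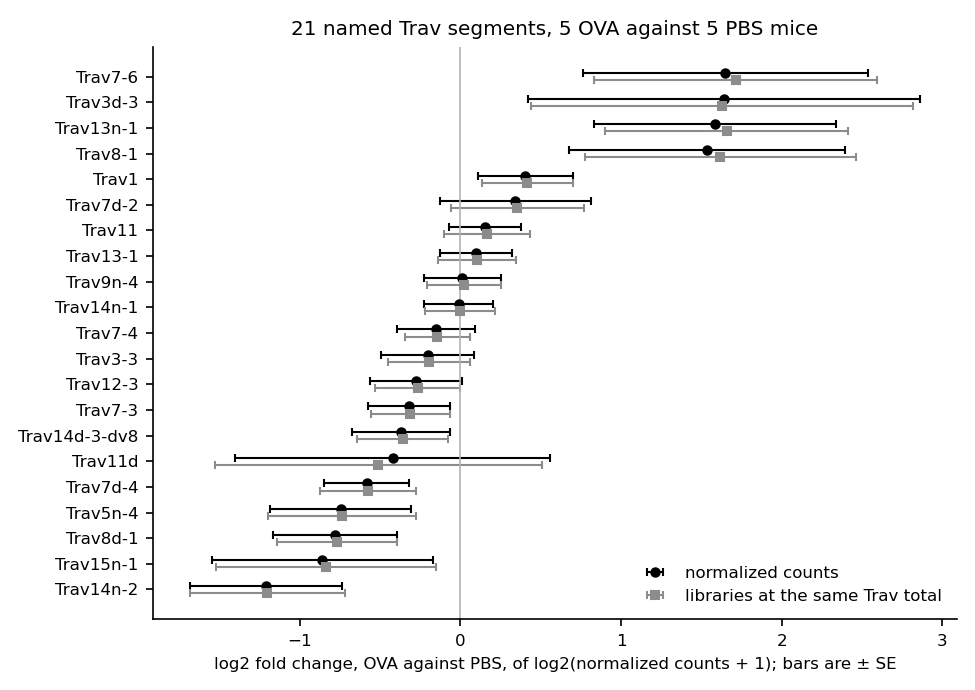
Log2 fold change of OVA against PBS mice (± SE, n = 5 each) of the 21 named segments, from normalized counts (black) and with the libraries at the same Trav total (grey). The scale is log2(normalized counts + 1), and no segment passes the test across all genes.

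The genes that work with these segments also did not pass the test. In the list of the receptor complex (Trac, Trbc1, Trbc2, the CD3 chains, the CD4 and CD8 coreceptors and proximal kinases and adaptors) 0 of 16 were called and 0 had an unadjusted p under 0.05, with limma against 0.00494% and 9.77% of all genes. Trac, the constant gene of the alpha chain, was at 22062 ± 6061 normalized counts in PBS and 22506 ± 3159 in OVA mice (SD, n = 5 each), with a log2 difference of 0.07 (SE 0.20; adjusted p = 0.933 by limma). Among the recombination genes 0 of 3 were called, Rag1 and Rag2 were near the floor, and Dntt, the terminal transferase that adds bases at the joins, was at 265 ± 67.4 and 366 ± 76.1 normalized counts (log2 fold change 0.49, SE 0.21; limma, adjusted p = 0.485), the only 1 of the 3 with an unadjusted p under 0.05. Of the 6 genes of the innate-like T cell list, 4 were found (Zbtb16, Klrb1c, Mr1 and Cd1d1). The joining segments Traj18 and Traj33 were not found. None of the 4 found genes and none of the 4 gamma delta constant genes were called, and 0 had an unadjusted p under 0.05.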

How the data were processed

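RNA from spleen CD3+ T cells of 5 PBS and 5 OVA mice was sequenced. The authors aligned the reads with STAR 2.6.1d to the Ensembl release 99 assembly (mm10 in the submitters' processing notes), obtained gene counts in Partek Flow 9.0 and scaled them with a median-ratio size factor per library, so that the deposited values are normalized counts (signal). At least 99.9% of them were whole multiples, within 0.1, of the value of 1 read, from which reads were recovered. Values and names were realigned with a hidden Markov model over distances of -10 to 40 rows, tested on simulated data. It placed the Trav names at 24 rows and not at the 25 set first, so 24 was used throughout. Genes with a mean of at least 1 were compared with limma 3.58.1 (R 4.3.3) on log2(normalized counts + 1) using the trend option, and p-values were adjusted over all 20249 genes (Benjamini-Hochberg). Shares were tested with every library scaled to the same Trav total. Alternatives were 25 rows, names as listed, pseudocounts of 0.5 and 0.1, other minimum means and scalings, array weights, edgeR 4.0.16, DESeq2 1.42.0, each mouse left out, drawing down to equal Trav reads (200 draws), pseudogenes left out and copies summed. Named segments were the 12 most abundant, Trav1, Trav11 and Trav11d, those called or not overlapping, and the 4 largest rises and falls among those with a mean of at least 10. The members and gene lists were chosen with earlier results of these data known. Variable exons were aligned within families with Biopython 1.88. The labels do not state that replicates came from separate animals. Intervals cover counting error only.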

Additional observations from a re-analysis of the deposited data

Results flagged for a closer look

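In 4 of 50 groups of 5 mice (named segments and Trav totals), the gap between 1 mouse and the rest, divided by the range, was above Dixon's 95% limit. Chance flags about 1 in 20 groups, or 2.5 of 50. The share of Trav11d was 0.863% in PBS replicate 3 and 0% in the other 4 PBS mice. The share of Trav14n-2 was 3.15% in PBS replicate 3, against 1.09% to 1.63% in the other PBS mice. In OVA replicate 10 the share of Trav7-3 was 1.48%, against 2.42% to 2.64% in the other OVA mice, and that of Trav13n-1 was 0.564%, against 0.166% to 0.279%. The causes were not tested.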

How the results depend on the processing

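Between OVA and PBS mice 0 of 116 segments were called with limma, edgeR and DESeq2 under every alternative run, with 0 to 13 segments at an unadjusted p under 0.05 and the lowest adjusted p between 0.181 and 0.622. The alternatives of 25 rows and of names as listed read the main limma fit at shifted rows. Both gave 2 segments at an unadjusted p under 0.05 and a lowest adjusted p of 0.413 by limma, like the main setting. They therefore add little to the count of 0. For the shares, which were also tested at 25 rows, with DESeq2 and with mice left out, 0 were called, with 0 to 12 segments at an unadjusted p under 0.05 and the lowest adjusted p between 0.348 and 1.00. The 13 and 12 of 116 were seen without PBS replicate 5, when 12.9% and 7.89% of all genes had an unadjusted p under 0.05 and 135 and 43 were called, against 1 with all mice. Without PBS replicates 1 and 3 together there were 0 and 1 segments at an unadjusted p under 0.05, against 8.16% and 6.09% of all genes. No paired analysis was possible because the groups share no replicate numbers.

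At a distance of 25 rows, Trav1 takes the row that carries Trat1 at 24 rows. The mean Pielou evenness in PBS and OVA mice was then 0.857 and 0.868, the effective number 31.9 and 32.9, the share of the 10 most abundant segments 38.7% and 36.7%, and the Trav total in OVA mice 0.0472% of all normalized counts. With copies summed, the effective numbers were 30.2 and 30.8 and the 10 most abundant units held 46.6% and 45.9%. With each mouse left out in turn, the effective number was between 54.0 and 57.9 in PBS and between 59.5 and 62.1 in OVA mice, and the other measures moved by less than their SD. Without PBS replicate 3 the median log2 fold change was -0.10 over the Trav segments and 0.04 over all genes. In the fit of all mice with each library scaled to the same total, it was 0.20 and 0.15.

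Log2 fold changes that turned direction, none of them called, were those at 25 rows of Trav11 (-0.15), Trav14d-3-dv8 (0.88), Trav12-3 (1.25), Trav8d-1 (0.86), Trav11d (0.15), Trav15n-1 (0.24), Trav5n-4 (0.0634) and Trav3d-3 (-0.57), of Trav9n-4 with edgeR (-0.0465) and DESeq2 (-0.0526), and of Trav11d with a pseudocount of 0.1 (0.45). With each mouse left out, Trav7-4 ranged from -0.30 to 0.0374, Trav3-3 from -0.36 to 0.00393, Trav14n-1 from -0.13 to 0.13, Trav9n-4 from -0.13 to 0.16, Trav7d-2 from -0.22 to 0.58 and Trav11d from -0.70 to 0.70. Without PBS replicate 3, Trav7d-2 was at -0.22 and Trav11d at 0.70. The cause was not tested. The 1969 Trav reads of PBS replicate 3 limit what can be seen of scarce segments in that mouse.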
